A study of Homo sapiens with 14 samples.

Results

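Human tRNA genes with an anticodon for tyrosine (TRY-GTA), isoleucine (TRI-TAT), arginine (TRR-TCT) or leucine (TRL-CAA) are the families in which most genes carry an intron. Nuclear RefSeq genes of the tRNA class on chromosomes 1 to 22 and X whose symbols begin with these 4 names were taken, which gave 30 of 429 tRNA genes. They comprised 12 TRY-GTA, 5 TRI-TAT, 6 TRR-TCT and 7 TRL-CAA genes. Each gene, with 100 bp on either side, was read against lists of chromatin regions bound by the progesterone receptor (PR) or by POLR3A, the catalytic core subunit of RNA polymerase III. The cells were T47D, a breast cancer line with oestrogen and progesterone receptors, grown in medium with fetal bovine serum and insulin and exposed for 1 h to ethanol, the vehicle, or to progesterone (P4), whose dose the labels do not give. Each antibody and treatment had 3 replicate libraries, and 2 pooled inputs, 1 per treatment, brought the total to 14. The labels do not say whether replicates were separate cultures. Each of the 4 ChIP groups came as 1 peak list with no value per replicate, so no difference between lists could be set against replicate spread, and no test was run. The lists hold binding sites and no expression, so the identity of the cells could not be checked against marker transcripts.

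RNA polymerase III reads tRNA genes from promoter elements inside the gene. The factor TFIIIC binds the A box near the start and the B box near the end, and TFIIIB then brings in the polymerase. In intron-bearing genes the intron interrupts the anticodon loop, just after the anticodon and between these boxes, so it is transcribed with the gene. The precursor is later cut by the TSEN endonuclease and joined by the RTCB ligase. PR is a hormone receptor that binds DNA after progesterone enters the cell, and the study asked whether it occupies tRNA genes together with the polymerase.

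Most of these genes were longer than the typical tRNA gene. The 30 genes spanned 74 to 108 bp with a median of 92 bp, against 70 to 93 bp and a median of 73 bp for the other 399 tRNA genes. A span above 80 bp, or above 90 bp for leucine genes with their long variable arm, was taken as room for an intron, and 27 of the 30 passed. The 12 TRY-GTA genes, of 13 tyrosine tRNA genes in all, spanned 89 to 94 bp, and the 5 TRI-TAT genes 93 or 94 bp. TRR-TCT4-1 and TRL-CAA5-1, at 74 bp each, and TRL-CAA6-1, at 84 bp, did not pass. They were kept as members because the anticodon set the choice. By chromosome, 12 genes lay on chromosome 6, 5 on chromosome 14, 4 on chromosome 1, and 9 on 6 other chromosomes.

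The RefSeq promoter table (GRCh38.p14) held no entry for any of the 30 genes, but windows of 3 neighbouring genes ran over a member. They are shown because 2 of them hold positions of summits described below. They also contrast 2 genes with a region within 100 bp in every list with 1 that has none. Each runs 5′ to 3′ on the strand on which the A box letters were found within the gene, and capitals mark the bases of the tRNA gene. TRI-TAT2-2 lies whole in the LARRPM window, chr6:27020257-27020556, printed on the plus strand. The first 49 of the 106 bases of TRL-CAA1-1 lie in the HCG14 window, chr6:28896280-28896579, printed on the minus strand. The first 21 of the 94 bases of TRY-GTA5-3 lie in the LOC124903281 window, chr14:20653172-20653471, printed on the minus strand.
TRI-TAT2-2: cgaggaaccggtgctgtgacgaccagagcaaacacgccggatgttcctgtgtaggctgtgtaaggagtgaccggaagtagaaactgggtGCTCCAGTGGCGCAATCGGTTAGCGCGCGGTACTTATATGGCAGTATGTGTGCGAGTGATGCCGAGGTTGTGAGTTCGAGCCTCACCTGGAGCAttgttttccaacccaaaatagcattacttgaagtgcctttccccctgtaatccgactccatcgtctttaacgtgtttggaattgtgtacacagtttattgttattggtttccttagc
TRL-CAA1-1: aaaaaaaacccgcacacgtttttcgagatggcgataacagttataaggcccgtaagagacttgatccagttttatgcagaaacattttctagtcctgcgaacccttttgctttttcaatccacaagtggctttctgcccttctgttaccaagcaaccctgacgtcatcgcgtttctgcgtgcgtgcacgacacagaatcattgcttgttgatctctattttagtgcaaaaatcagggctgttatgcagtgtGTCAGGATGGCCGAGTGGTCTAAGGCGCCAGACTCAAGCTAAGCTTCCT
TRY-GTA5-3: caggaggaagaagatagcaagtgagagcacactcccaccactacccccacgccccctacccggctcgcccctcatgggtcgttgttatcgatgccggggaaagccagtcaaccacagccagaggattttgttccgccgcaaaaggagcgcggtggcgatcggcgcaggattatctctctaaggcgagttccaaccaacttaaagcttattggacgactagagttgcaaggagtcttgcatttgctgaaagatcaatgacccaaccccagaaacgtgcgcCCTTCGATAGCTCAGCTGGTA

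Each gene matched the A box consensus at bases 8 to 18, counted from the first base of the gene. The matches read TGGCGCAATCG in TRI-TAT2-2, TGGCCGAGTGG in TRL-CAA1-1 and TAGCTCAGCTG in TRY-GTA5-3. The B box letters GTTCGANNC stood at bases 74 to 82 of TRI-TAT2-2, as GTTCGAGCC, and this was the only one of the 3 windows to reach the end of its gene. Of 35116 RefSeq promoter windows of the same length, 33.4% held the A box consensus and 0.829% the B box letters on either strand. The run TTTT, the usual stop signal of RNA polymerase III, began at base 98 of TRI-TAT2-2, past the end of the gene at base 94, and 71.4% of all windows held that run on either strand. Neither the palindromic progesterone response element, present in 0.390% of all windows, nor the shorter element AGAACA, present in 14.8%, was found on either strand of the 3 windows. A match is a description of letters, and the absence of a match covers these windows alone. The P4 summit of PR at TRI-TAT2-2 and its vehicle summit at TRL-CAA1-1 lay outside the windows.

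POLR3A occupied the same number of these genes with and without hormone. Its regions reached 23 of the 30 genes in the vehicle list, 76.7% (95% Wilson interval 59.1 to 88.2), where 82.3% of all tRNA genes were reached. Under P4 it reached 23 again, against 81.8% of all tRNA genes. No gene gained and none lost POLR3A (0 of 30, upper end of the same interval 11.4%), while 2.8% of all tRNA genes gained it and 3.26% lost it. By family, 8 of 12 TRY-GTA, 4 of 5 TRI-TAT, 5 of 6 TRR-TCT and 6 of 7 TRL-CAA genes carried it under each treatment. These intervals cover counting over genes only. They treat genes as independent, although the 23 genes with POLR3A lay in 22 distinct regions in each list. The members' shares lay near those of all tRNA genes.

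PR reached fewer of them, and more under P4 than under vehicle. PR regions reached 7 of the 30 genes in the vehicle list, 23.3% (11.8 to 40.9), where 12.8% of all tRNA genes were reached. In the P4 list they reached 12, 40% (24.6 to 57.7), where 26.1% of all tRNA genes were reached. All 7 and all 12 also had POLR3A under the same treatment, and 12.8% and 25.9% of all tRNA genes had both. PR was gained at 6 genes, 20% (9.51 to 37.3), and lost at 1, 3.33%, while 15.2% of all tRNA genes gained it and 1.86% lost it. The P4 list of PR was also the longer one, with 111515 regions against 38933, and with both at 38933 regions the counts became 7 under vehicle and 3 under P4, with 1 gene gained and 5 lost. At equal length no share over all tRNA genes was taken.

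**Figure D1:**
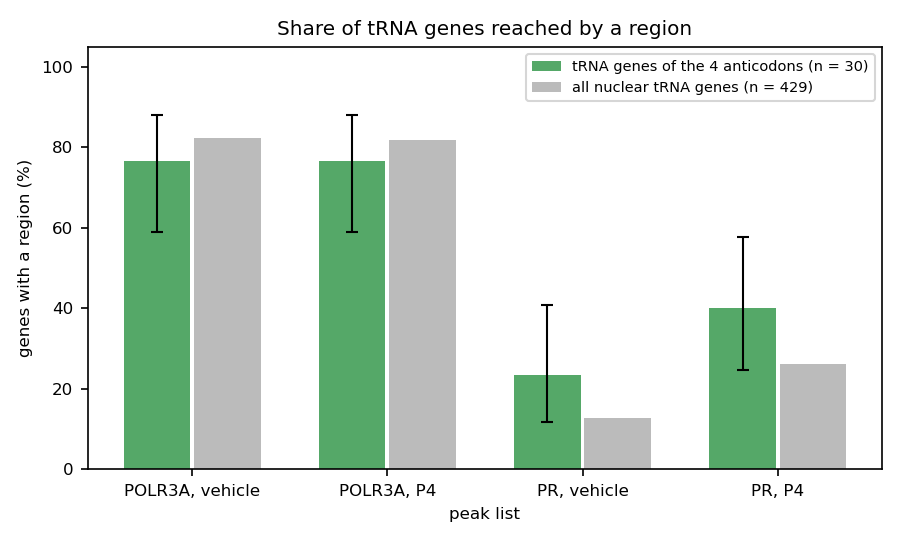
Share of tRNA genes (%, y axis) reached by a region of each of the 4 peak lists (x axis), for the 30 genes of the 4 anticodons (green, bars with 95% Wilson intervals) and for all 429 nuclear tRNA genes (grey). The green bars stand at 76.7% in both POLR3A lists and at 23.3% and 40% in the PR lists.

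The POLR3A regions at these genes ranked near the top of their lists. Each region has a deposited −log10 q, where q is the false discovery rate of the peak caller, and a deposited fold enrichment over background. Both are the authors' values and served only to describe and rank regions within 1 list. The −log10 q at the 23 genes ran from 10.0 to 592 under vehicle, with a median of 437, and from 17.7 to 554 under P4, with a median of 441. The medians lay at percentiles 99.6 and 99.8 of the 2 lists, and over all tRNA genes with a region they lay at 99.5 and 99.7. The median fold was 56.7 under vehicle and 56.0 under P4, on the authors' scale.

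**Figure D2:**
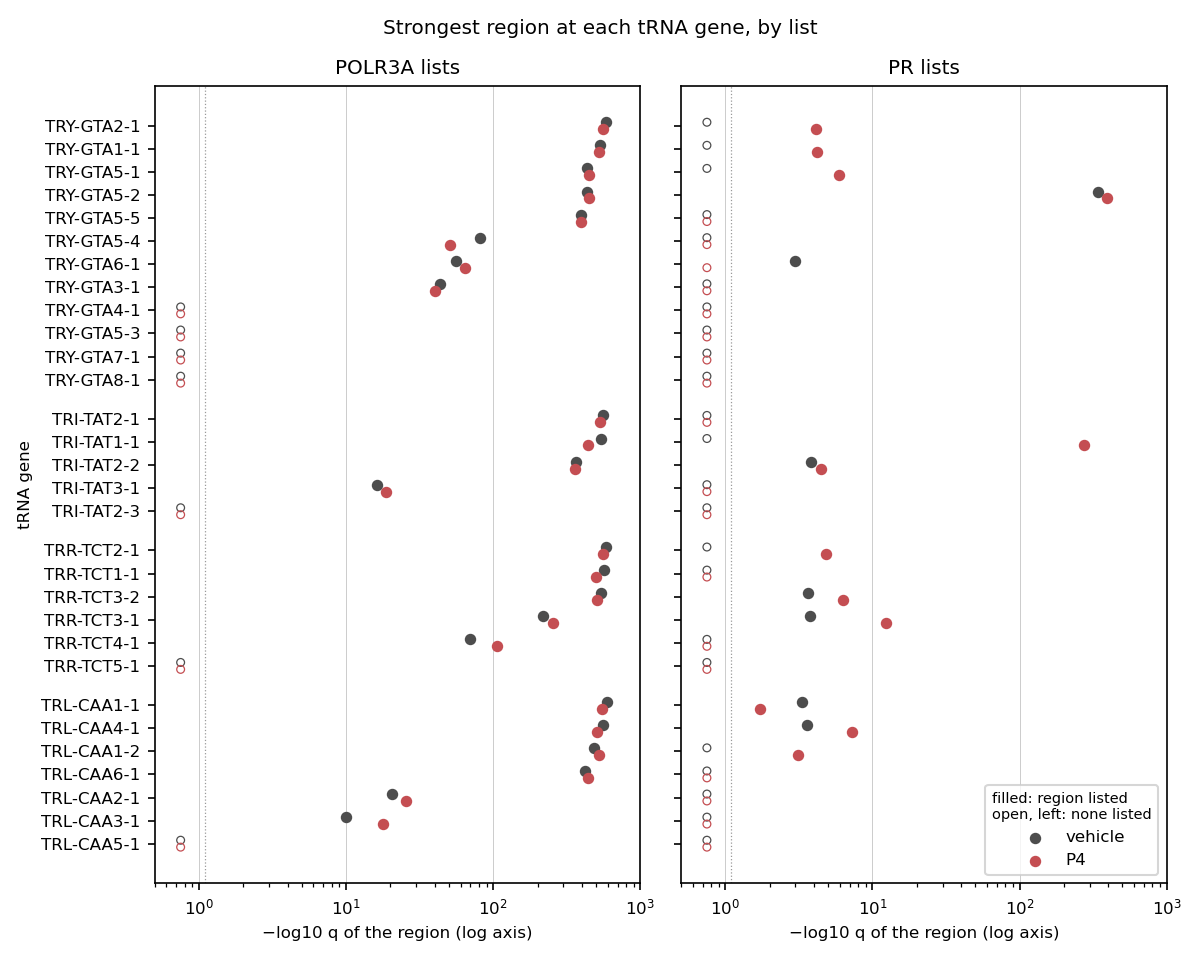
−log10 q of the strongest region (x axis, log scale) at each of the 30 tRNA genes (y axis, by family), in the POLR3A lists (left) and PR lists (right), with vehicle in grey and P4 in red; open symbols at the left mark genes with no region in that list. The POLR3A values reach 592, whereas all PR values but those of TRY-GTA5-2 and TRI-TAT1-1 lie at or under 12.4.

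Among the members, the POLR3A values fell into a high and a low range. Under vehicle, 16 genes had values from 219 to 592 and 7 had values from 10.0 to 81.8, with none between. Under P4 the same 16 genes ran from 256 to 554 and the same 7 from 17.7 to 106. The 7 genes of the low range were TRY-GTA5-4, TRY-GTA6-1, TRY-GTA3-1, TRI-TAT3-1, TRR-TCT4-1, TRL-CAA2-1 and TRL-CAA3-1, of which 5 lie on chromosome 6. Each of the 7 stood alone, with no other tRNA gene within 1 kb, while 8 of the 16 high genes had such a neighbour. All 12 genes with PR under P4 were in the high range, and PR under P4 was at none of the 7 low genes. PR under vehicle was at 6 of the 16 high genes and at 1 of the 7 low genes, TRY-GTA6-1. The split at 200 was set after these values were seen. Among all tRNA genes with POLR3A under vehicle, values reached 199 below the split and began at 202 above it, so that gap was absent. In the same genes, PR under P4 was at 50% of the 216 above the split and at 2.19% of the 137 below it. PR under vehicle was at 24.5% and 1.46% of them. Of those 137 genes, 118 stood alone and 59 lay on chromosome 6. Of the 216 genes, 116 stood alone and 68 lay on chromosome 6.

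Most genes of the tyrosine family lie in 2 arrays, on chromosomes 14 and 6. On chromosome 14, TRY-GTA5-3 (20653099 to 20653192), TRY-GTA4-1 and TRY-GTA7-1 had no region in any list, although their neighbour TRY-GTA5-4 (20663192 to 20663285) had POLR3A at 81.8 under vehicle and 50.5 under P4. The nearest POLR3A region to TRY-GTA7-1 was that of TRY-GTA5-4, 2804 bp away under vehicle and 2939 bp under P4. TRY-GTA5-5, at the far end of the array, lay in a POLR3A region of 396 under vehicle and 395 under P4. The summit of that region stood 731 and 760 bp from its midpoint, nearest to the proline gene TRP-TGG3-2, so at this region the 2 genes cannot be told apart.

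On chromosome 6, TRY-GTA1-1 (26568858 to 26568948) had the strongest POLR3A region of the array, 535 under vehicle and 524 under P4, with summits 28 and 21 bp from its midpoint. TRY-GTA8-1, at 6712 bp from it, had none in either list. TRY-GTA3-1 had 43.21 and 40.03, and TRY-GTA6-1, at the far end, had 55.9 and 63.9. Within this array, tyrosine genes ranged from no region to 535 under vehicle and to 524 under P4. PR reached none of the 5 tyrosine genes on chromosome 14. On chromosome 6 it reached TRY-GTA1-1 under P4 alone (4.23) and TRY-GTA6-1 under vehicle alone (2.98).

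**Figure D3:**
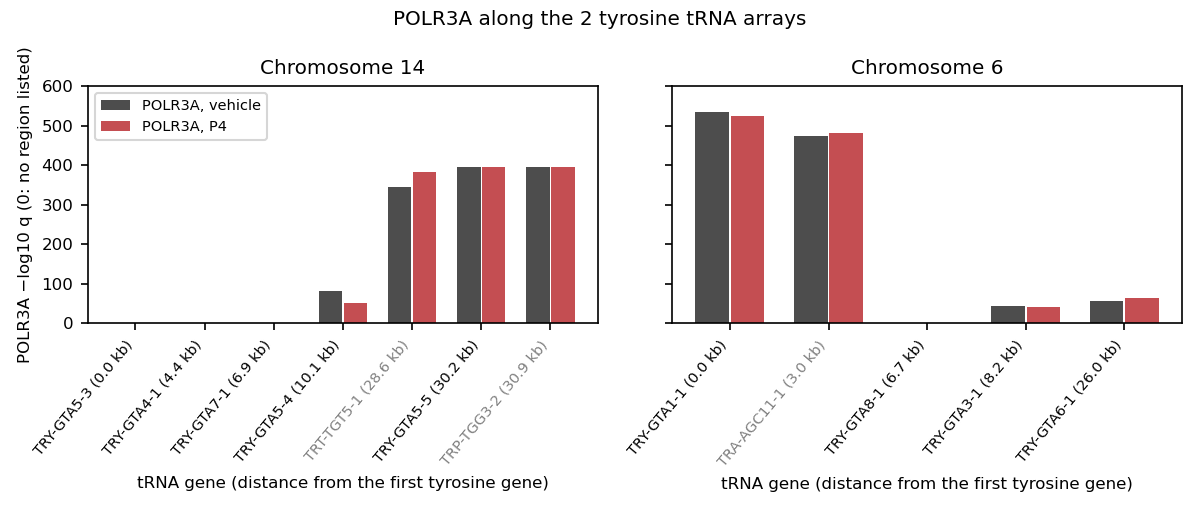
POLR3A −log10 q (y axis) at tRNA genes along the tyrosine arrays of chromosomes 14 and 6 (x axis, in order, with the distance in kb from the first tyrosine gene), under vehicle (grey) and P4 (red); genes of other amino acids have grey names, and TRY-GTA5-5 shares its region with TRP-TGG3-2. TRY-GTA5-3, TRY-GTA4-1, TRY-GTA7-1 and TRY-GTA8-1 have no bar.

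The other tyrosine genes lay on chromosomes 2 and 8. TRY-GTA2-1 (chromosome 2, 27050782 to 27050870, inside AGBL5) lay in a POLR3A region of 587 under vehicle and 554 under P4, the highest values of the family. Its summits were 431 and 417 bp away, nearest to the alanine gene TRA-AGC8-1. TRY-GTA5-1 and TRY-GTA5-2, 529 bp apart inside TRIM55 on chromosome 8, shared 1 POLR3A region of 437 under vehicle and 445 under P4. That region also ran over the alanine gene TRA-AGC8-2. The summit of the region was 16 and 14 bp from the midpoint of TRY-GTA5-1.

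Under the naming of tRNA genes, symbols with the same first number share the mature tRNA sequence, and 12 of the 30 genes belong to 4 such groups. Copies within a group differed in occupancy. Of the 5 TRY-GTA5 copies, 1 had no POLR3A region, 1 had a value under 100 and 3 lay in regions of 395 to 445. Among those 3, only TRY-GTA5-1 had the summit of its region in the gene or the 100 bp around it. Of the 3 TRI-TAT2 copies, TRI-TAT2-1 (chromosome 2, 42810536 to 42810628) had 559 under vehicle and 531 under P4, TRI-TAT2-2 had 366 and 362, and TRI-TAT2-3 (chromosome 6, 27631421 to 27631514) had no region in any list. Both TRL-CAA1 copies and both TRR-TCT3 copies had POLR3A in each list. How reads that match several copies were placed is not given in the sources used here, and its part in the missing regions was not tested.

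Among isoleucine genes, TRI-TAT1-1 (chromosome 19, 39412168 to 39412260) had POLR3A at 540 under vehicle and 441 under P4, and its summits lay 46 and 41 bp from the midpoint. TRI-TAT3-1 on chromosome 6 was the weakest of the family with a region, at 16.2 and 18.7. Among arginine genes, TRR-TCT2-1 (chromosome 17, 8120925 to 8121012, inside HES7) had the highest values, 582 and 554. Its region was 2861 bp long under vehicle, ran over 4 tRNA genes, and had its summit nearest to the lysine gene TRK-TTT3-5. TRR-TCT1-1 (chromosome 1, 93847573 to 93847657, inside BCAR3) had 564 and 502 with summits 15 and 22 bp from its midpoint, and no PR region within 3 kb under either treatment. TRR-TCT5-1 on chromosome 6 had no region in any list.

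Among leucine genes, TRL-CAA1-1 (chromosome 6, 28896223 to 28896328) had the highest POLR3A value of all 30 genes under vehicle, 592, at rank 9 of 29161 regions, and 551 under P4. TRL-CAA3-1 (chromosome 6, 27602569 to 27602675) had the lowest, 10.0 under vehicle and 17.7 under P4. The short gene TRL-CAA6-1 (chromosome 1, 161611946 to 161612029) lay in a POLR3A region of 420 under vehicle and 441 under P4. The summit of that region stood 730 and 720 bp from the end of the gene, and no other gene of the RefSeq table lay within 4 kb of it. TRL-CAA5-1 on chromosome 11, also short, had no region, and its nearest POLR3A region was 10496 bp away under vehicle.

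The POLR3A summits did not all lie on the members. A POLR3A summit fell in the gene or the 100 bp around it at 17 of the 30 genes under vehicle, 56.7%, and at 16 under P4, 53.3%, against 68.3% of all 429 tRNA genes in each list. Where a summit stood at most 500 bp from the midpoint, its median distance was 17.2 bp under vehicle and 18 bp under P4 (18 genes each). The other members with POLR3A lay in regions of 395 or more that ran on to a neighbour, or in that of TRL-CAA6-1. In TRI-TAT2-2 the POLR3A summits stood at bases 42 and 48 of the gene, between the A and B boxes printed above. In TRL-CAA1-1 they stood at bases 34 and 48.

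PR summits lay elsewhere. For PR summits at most 500 bp away, the median distance from the midpoint was 243 bp under vehicle and 248 bp under P4 (10 genes each). For the other tRNA genes the same medians were 166 bp (55 genes) and 192 bp (109 genes). These are nearest summits, whether or not the gene counted as having PR. Without such a call, TRR-TCT2-1, TRI-TAT1-1, TRY-GTA2-1 and TRL-CAA1-2 entered under vehicle and TRL-CAA6-1 under P4. The limit left out TRY-GTA5-2 in both lists, and TRI-TAT1-1 and TRR-TCT3-2 under P4. A PR summit fell in the gene or the 100 bp around it at 2 members under vehicle, TRI-TAT2-2 and TRR-TCT3-2, against 4.66% of all tRNA genes. Under P4 it did at 3, TRY-GTA1-1, TRL-CAA1-1 and TRR-TCT3-1, against 9.32%. No member had one under both treatments, so by summit 3 were gained and 2 lost, against 6.99% and 2.33% of all tRNA genes. The vehicle summit at TRI-TAT2-2 stood at base 28 of the gene, and the P4 summit at TRL-CAA1-1 at base 224 of the printed window, upstream of the gene, which begins at base 252.

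**Figure D4:**
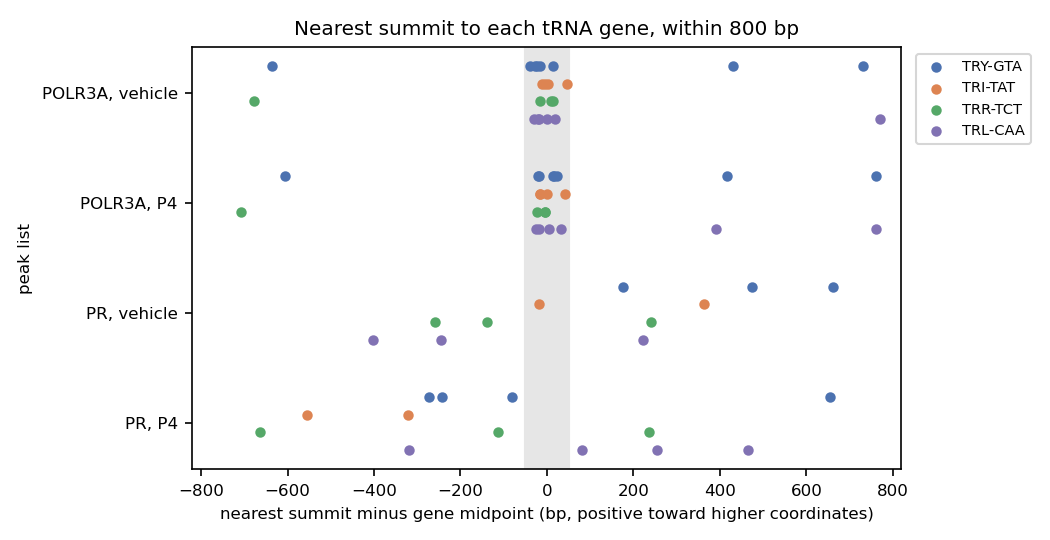
Distance of the nearest summit from the midpoint of each tRNA gene (x axis, bp, positive toward higher coordinates; grey band within 50 bp) in the 4 peak lists (y axis), coloured by family and shown where it is at most 800 bp. POLR3A summits gather in the band, and 1 PR summit, that of TRI-TAT2-2 under vehicle, lies in it.

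A PR region above 100 in −log10 q, a value set after these were seen, reached 1 member in the vehicle list, against 1.40% of all tRNA genes, and 2 members in the P4 list, against 1.63%. At the members these regions had their summits over 500 bp from the midpoint. TRY-GTA5-2 (chromosome 8, 66113988 to 66114076) was within reach of a PR region of 341 under vehicle and 390.2 under P4. Its summit stood 661 and 655 bp from the gene's midpoint, beyond the alanine gene TRA-AGC8-2. The vehicle region began 97 bp from TRY-GTA5-2 and the P4 region covered it. TRI-TAT1-1 had PR at 274 under P4, in a region 1627 bp long with its summit 554 bp from the midpoint. The nearest protein-coding gene end, that of PLEKHG2, was 455 bp from the midpoint. TRI-TAT1-1 counted as a gain, although a PR region of 178 in the vehicle list stood 184 bp from the gene.

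The other PR regions were weak. The 6 other genes with PR under vehicle had −log10 q from 2.98 to 3.81, and the 10 other genes with PR under P4 from 1.73 to 12.4. Over all members with PR, the median region lay at percentile 29.6 of the vehicle list and 53.7 of the P4 list. The same medians over all tRNA genes with PR were 31.2 and 59.8. TRR-TCT3-1 (chromosome 9, 128340076 to 128340166), near the fatty acid transporter gene SLC27A4, had 3.78 under vehicle and 12.4 under P4. TRL-CAA4-1 (chromosome 1, 248873855 to 248873960, inside PGBD2) had 3.59 and 7.24, with both summits nearest to the glutamate gene TRE-CTC2-1. TRR-TCT3-2 on chromosome 11, in a locus of 4 tRNA genes, had 3.64 and 6.36. TRI-TAT2-2 had 3.81 and 4.47, and TRL-CAA1-1 had 3.30 and 1.73. The vehicle PR region of TRL-CAA1-1 ended 100 bp from the gene, at the edge of the window. Such values place a region within its own list, so a pair of them is no measure of response.

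Of the 6 genes counted as gaining PR, 4 had a vehicle PR region within 200 bp, a count that was not taken over all tRNA genes. Besides TRI-TAT1-1, the vehicle region stood 117 bp from TRR-TCT2-1 (3.84 under vehicle, 4.87 under P4), 134 bp from TRY-GTA2-1 (3.59 and 4.15) and 175 bp from TRL-CAA1-2 (4.61 and 3.10). The 2 others were TRY-GTA1-1, whose nearest vehicle region was 14370 bp away, and TRY-GTA5-1 (5.93 under P4), where it was 714 bp away and was the strong region near TRY-GTA5-2. TRY-GTA6-1 lost PR, and its nearest P4 region stood 828 bp away. With 500 bp on each side, PR was at 11 members under vehicle and 13 under P4, with 3 gained and 1 lost, and at 19.8% and 35.4% of all tRNA genes, with 17.7% gained and 2.1% lost.

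Members with PR lay nearer to protein-coding genes. Under P4, the 12 members with PR had a median distance of 869 bp to the nearest protein-coding gene end, with 6 within 1 kb. The 11 with POLR3A and no PR had a median of 11208.5 bp, with 2 within 1 kb, and the 7 without POLR3A one of 18313.5 bp, with 0 within 1 kb. The same order held over all tRNA genes, with medians of 5442 bp (112 genes), 21819 bp (240 genes) and 57151 bp (64 genes without POLR3A in either list). The share within 1 kb was 26.8% of all tRNA genes with PR under P4 and 9.58% of those with POLR3A alone. The part of nearby gene promoters in the PR regions was not tested.

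Genes for the enzymes that process intron-bearing tRNAs were examined over the gene span with 1 kb on either side. They were the endonuclease subunits TSEN15, TSEN34 and TSEN54 with the kinase CLP1, the ligase RTCB and its partners DDX1, FAM98B, RTRAF, C2orf49 and ZBTB8OS, and NSUN2, which methylates the leucine precursor. POLR3A regions were at 8 of these 11 genes under each treatment, against 44.2% of all 19821 protein-coding genes under vehicle and 49.1% under P4. The 8 were not the same genes. C2orf49 and TSEN34 had POLR3A under vehicle alone, and ZBTB8OS and FAM98B under P4 alone. PR regions were at 5 under vehicle and 9 under P4, against 44.7% and 70.8%. Both antibodies had a region at 4 under vehicle and 8 under P4, against 30.7% and 46.4%. The 11 genes had a median length of 30113 bp against 24482 bp for all protein-coding genes. A longer gene can hold more regions, and the part of length in these counts was not tested.

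No POLR3A region at these genes was above 6.81 in −log10 q, while the weakest at the members with POLR3A was 10.0. Over all tRNA genes with POLR3A the weakest was 1.48 under vehicle and 2.21 under P4. NSUN2 had the strongest PR region, 65.0 under vehicle and 117 under P4. TSEN15 had 1 PR region under vehicle (27.4) and 4 under P4, the strongest at 77.7. CLP1 (4.16 and 6.18) and FAM98B (5.64 and 37.6) had PR in each list. TSEN54 (9.37), DDX1 (10.5), RTRAF (5.83) and ZBTB8OS (2.56) had it under P4 alone. C2orf49 had both under vehicle, with 3 PR regions then and 11 under P4, where the strongest was 80.4. RTCB itself had no region in any list, and TSEN34 had POLR3A alone, under vehicle (2.12).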

How the data were processed

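The authors deposited 4 peak lists, 1 for each antibody and treatment. cutadapt, Bowtie2, MACS2 and the build hg38 are named in the submitters' processing notes, while their roles, the control used and how replicates entered a list are not given in the sources used here. Per the layout of the deposited files, each line gives a region with its summit, fold enrichment (a ratio), −log10 q, and a score and a −log10 p that were not used (4 −log10 p columns). The largest q-value in the deposited lists was 0.0497. The files hold no read counts, so depth is unknown.

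Regions and genes on chromosomes 1 to 22 and X were used. RefSeq genes (GRCh38.p14) were kept up to the point in each chromosome where start positions fell back, which kept 58419 of 59098. A gene was called when a region reached it, with 100 bp on each side, by at least 1 bp, and the region with the highest −log10 q gave its values. The genes called in 4 of 4 lists equalled those found with bedtools 2.31.1, and the code was checked on simulated data. Python 3.11.15 and pandas 2.3.3 were used. The table gives no strand for tRNA genes, and genes that share a symbol were kept apart by position. Percentiles are midranks within a list. Wilson intervals (95%) came from scipy 1.17.1.

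The genes, the list of processing enzymes and the alternatives were chosen with earlier results of these data known. Named in full are genes with PR in any list, genes with POLR3A in one list or none, and in each family the gene with the highest POLR3A value in each list. Processing enzyme genes are named where both antibodies had a region. A planned gene of that list is not reported here, and its counts leave it out. TRY-GTA3-1, TRY-GTA5-4, TRY-GTA5-5, TRI-TAT3-1, TRR-TCT1-1, TRR-TCT4-1, TRL-CAA2-1, TRL-CAA3-1, TRL-CAA6-1, RTCB and TSEN34 were named after their values were seen. Settings tried were a −log10 q minimum of 5 or 10, equal list lengths, other windows, loci in place of genes, spans with room for an intron, rank by fold and a 200 bp limit on summits, and, chosen after seeing the data, calls by summit.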

Additional observations from a re-analysis of the deposited data

How the results depend on the processing

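Of 104 values under alternative settings, 36 moved, counting as moved a count that changed by over 1.5 times, a percentile outside its 95% Wilson interval, or any change in a summit distance. The POLR3A count was 23 under each treatment at every threshold, list length and window, 22 by loci, 21 for genes with room for an intron, and 17 and 16 by summit, where 1 gene, TRL-CAA4-1, counted as lost. The PR counts moved most. At −log10 q of at least 5, PR was at 1 gene under vehicle and 6 under P4, with 5 gained and 0 lost, and at 10 or more at 1 and 3, with 2 gained and 0 lost. Genes with both antibodies gave the same counts. With lists of equal length, PR was at 7 and 3 genes, with 1 gained and 5 lost, so the direction turned. Within the gene body alone it was at 3 and 12, with 10 gained, and with 500 bp on each side at 11 and 13, with 3 gained. For the q minima, equal lengths and the gene body alone, no share over all tRNA genes was taken. Whether those PR counts are particular to these genes is therefore unknown. For POLR3A, a share over all tRNA genes was taken only for the main calls and for calls by summit. Whether its steady count under the other settings is particular to these genes is likewise unknown. By summit it was at 2 and 3 genes, with 3 gained and 2 lost, and 1 and 3 genes had both antibodies. Ranked by fold, the PR medians lay at percentiles 40.4 and 54.0. With summits within 200 bp, median distances were 16 and 17.5 bp for POLR3A and 138.5 bp (3 genes) and 81 bp (3 genes) for PR. Within 1 kb of gene ends, POLR3A was at 6 processing enzyme genes under vehicle and 7 under P4, and PR was at 1 and 9. Both antibodies together were at 1 under vehicle and 7 under P4. No share over all protein-coding genes was taken at gene ends. No paired analysis was possible because each group has 1 list with no replicate number, and for the same reason no replicate could be left out. Unknown depth limits every comparison of list against list, and near-identical gene copies limit the calls at single genes.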

Other observations

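The 3 tRNA pseudogenes with these anticodons in the RefSeq table, TRL-CAA7-1, TRY-GTA11-1 and TRY-GTA12-1, fell outside the choice of genes, and none had a region of either antibody under either treatment within 100 bp.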
